A study of Mus musculus with 6 samples.

Results

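The genes described here encode the alpha chains of the collagens, chosen as every gene symbol made of Col, a number, the letter a and a number. The rule found 44 genes among the 24513 in the count tables, and 43 of them had enough reads to be tested. RNA was measured by sequencing of the whole hypothalamus, the part of the brain that controls feeding, body temperature and pituitary secretion, from C57BL/6 mice aged 3 to 4 months. There were 3 wild-type (WT) mice and 3 NS-DADm mice, and each of the 6 libraries held the RNA of 1 mouse. The labels give the genotype as NS-DADm without further detail. As background, the name is known for a mouse line whose nuclear receptor co-repressors carry point mutations where they would switch on the histone deacetylase HDAC3, and so cannot activate it. That change is carried in every cell and is not limited to the hypothalamus or to the cells that make collagen. The libraries are called WT 1 to WT 3 and NS-DADm 1 to NS-DADm 3, after their titles.

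Collagens are extracellular proteins built from chains that wind into a triple helix, and in the brain each family marks a different place. Fibrillar collagens (types I, II, III, V, XI, XXIV and XXVII) form the ropes of connective tissue, which in the brain is found mainly in the meninges and around large vessels, where fibroblasts make them. Network collagens of type IV, with types XV and XVIII, lie in the basement membrane beneath endothelial cells and around pericytes. FACIT collagens sit on the surface of fibrils, type VI collagens form beaded filaments, and transmembrane collagens stay anchored in the cell that makes them. Several of the less known chains are made by neurons: Col25a1 encodes a membrane collagen needed for motor axons to reach muscle, and Col19a1 is made by interneurons and takes part in synapse formation. The genes were therefore read here in structural classes and as 3 groups with different likely sources: fibrillar chains, basement membrane chains, and the 4 chains taken as neuronal (Col19a1, Col23a1, Col24a1 and Col25a1, of which Col24a1 is also fibrillar).

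Between 24173076 and 27606309 reads per library were assigned to genes, and the collagen chain genes took 0.0701% to 0.0890% of them, the most in WT 1. The 13 marker genes of hypothalamic neurons that were looked up (such as Pomc, Agrp, Avp and Oxt) were all above 0 in both groups and summed to between 605 and 745 CPM. CPM, the unit used throughout, is the count of a gene scaled to a library of 1000000 assigned reads. The libraries also differed in markers of neighbouring regions. The sums of these markers did not overlap between the genotypes, so region content and genotype cannot be told apart here. Markers of the thalamus, the region above the hypothalamus, summed to 1111 to 1653 CPM in WT and 780 to 888 CPM in NS-DADm. All 16 were fitted lower in NS-DADm and 5 passed the threshold, where 0.654% of all genes passed it in either direction. The list was chosen with earlier results of these data known, so these counts are no independent test. Markers of the anterior pituitary summed to 40.5 to 112 CPM in WT and 201 to 2023 CPM in NS-DADm, the highest in NS-DADm 2. Most of that sum was Gh, at 30.5 to 96.0 CPM in WT and 167 to 1810 in NS-DADm. Of the 8 tested pituitary markers none passed the threshold. For 3 of the 8 the NS-DADm values lay wholly above WT, where 7.86% of all genes did. In whole tissue, fewer cells of a type and less RNA per cell cannot be told apart, and this holds for every value below.

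The chain genes differ in what stands before their first exon, and 4 are shown because they come from the groups compared below: Col3a1 and Col5a1 from connective tissue fibrils, Col24a1 and Col25a1 from the neuronal set. Each line gives the 150 bases before the RefSeq start of the gene on build GRCm38.p6, the build also called mm10, read 5′ to 3′ on the strand of the gene. Capitals mark 1 of 3 short promoter motifs, each searched on both strands. The TATA box was searched as TATAAA. The CCAAT box was searched by the letters of its name. The GC box was searched as GGGCGG, which reads CCGCCC when it lies on the other strand.
Col3a1 (chr1:45311388-45311537, plus strand): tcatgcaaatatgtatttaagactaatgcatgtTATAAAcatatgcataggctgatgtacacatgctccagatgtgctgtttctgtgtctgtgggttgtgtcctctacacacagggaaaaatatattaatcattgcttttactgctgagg
Col5a1 (chr2:27886275-27886424, plus strand): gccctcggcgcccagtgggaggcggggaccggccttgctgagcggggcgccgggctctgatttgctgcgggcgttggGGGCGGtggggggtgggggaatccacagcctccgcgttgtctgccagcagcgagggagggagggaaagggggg
Col24a1 (chr3:145292322-145292471, plus strand): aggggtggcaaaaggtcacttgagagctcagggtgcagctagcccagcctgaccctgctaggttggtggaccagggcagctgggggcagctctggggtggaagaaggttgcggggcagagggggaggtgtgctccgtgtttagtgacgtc
Col25a1 (chr3:130180695-130180844, plus strand): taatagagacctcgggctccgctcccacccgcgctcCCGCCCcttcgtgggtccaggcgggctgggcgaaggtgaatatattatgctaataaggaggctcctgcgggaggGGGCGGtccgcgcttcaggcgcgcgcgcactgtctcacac
The Col3a1 window was poor in G and C (37.33%) and held a TATA box, whereas the Col5a1 window was rich in them (74.67%) and held a GC box. The Col24a1 window held none of the 3 motifs, and the Col25a1 window held 2 GC boxes and lies inside the longer GENCODE gene model used here for positions and lengths. RefSeq promoter entries were found for 35 of the 44 genes, 38 windows in all, of which 20 lie outside annotated exons. A TATA box was in 4 of those 38 windows (Col3a1, Col10a1, Col11a2 and Col17a1), against 7.57% of the 32851 promoters in the table. A CCAAT box was in 8 windows against 24.5% of all promoters, and a GC box in 19 windows against 28.6%. These are matches of letters at any position in the window and do not show that a factor binds there.

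To compare genes with each other, levels were divided by the length of the longest coding transcript and are given as CPM per kb. On that scale the highest level was that of Col25a1, the neuronal membrane collagen, with 29.3 ± 0.53 CPM per kb in WT and 26.0 ± 1.2 in NS-DADm (SD, n = 3). The vessel chains Col4a2 and Col4a1 followed at means over the 6 libraries of 15.0 and 8.50 CPM per kb, with Col16a1, a FACIT chain, between them at 9.04. Next came the cartilage-type chains Col9a2 (7.27), Col11a1 (5.90), Col9a3 (5.05) and Col11a2 (4.58), the membrane chain Col23a1 (5.52) and the FACIT chain Col19a1 (4.03). Col6a1 (3.54), the most abundant chain of type VI, and Col1a2 (3.44), the most abundant of types I, III and V, closed the 12 highest. The order depends on the length used. Over the union of all annotated exons Col4a2 (14.6) and Col25a1 (14.3) stood side by side at the top, and Col18a1 and Col15a1 took the places of Col19a1 and Col1a2 among the 12. Of the other classic fibril chains, Col1a1 averaged 1.10 CPM per kb of coding transcript and Col3a1, named here after its values were seen, 0.599. Both were below Col1a2. At the bottom were Col17a1 (0.0945), a chain of epithelial anchoring junctions, and Col10a1 (0.056), a chain of growth plate cartilage, which had 2 to 9 reads per library and was not tested.

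**Figure D1:**
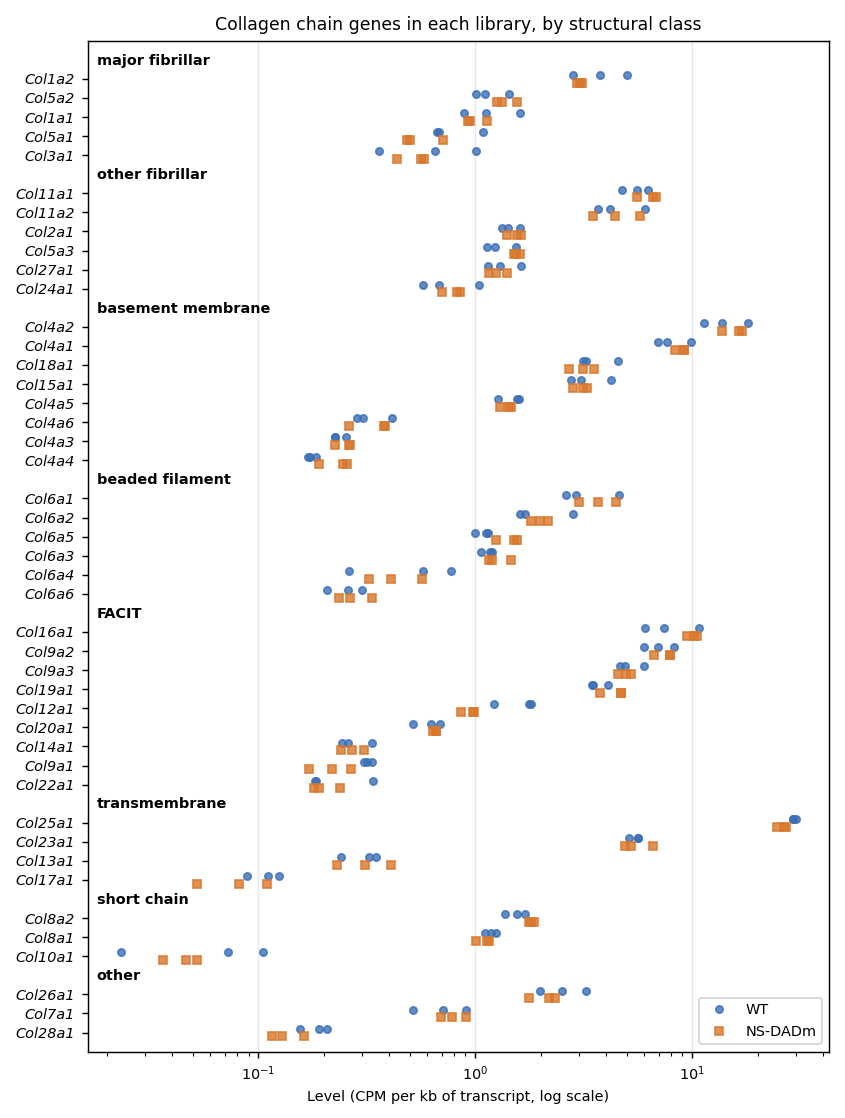
Level of each collagen chain gene per transcript length (CPM per kb, log axis) in the 6 libraries, ordered within structural classes; each point is 1 mouse, blue for WT and orange for NS-DADm. On this length scale Col25a1 stands highest, between 24.7 and 29.9 CPM per kb, and the WT and NS-DADm points of most genes overlap.

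No collagen chain gene differed between NS-DADm and WT at an adjusted p under 0.05 (edgeR quasi-likelihood test, Benjamini-Hochberg over the 15894 genes tested). Over all genes the same rule called 104, or 0.654%: 13 higher and 91 lower in NS-DADm. Before adjustment, 4 collagen genes had p under 0.05 and were higher (Col19a1, Col4a4, Col5a3 and Col6a5), 9.3% of the 43, where 4.4% of all genes were. Another 4 had p under 0.05 and were lower (Col12a1, Col25a1, Col5a1 and Col9a1), again 9.3%, where 6.46% of all genes were. The 3 NS-DADm values lay wholly above the 3 WT values for Col4a4, Col6a5 and Col8a2, which is 6.98% of the genes against 7.86% of all genes. They lay wholly below for Col12a1, Col25a1 and Col9a1, also 6.98% against 8.93% of all genes. The fitted log2 fold change was above 0 for 22 genes and below 0 for 21, with a median of 0.02 beside 0.004 for all genes.

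**Figure D2:**
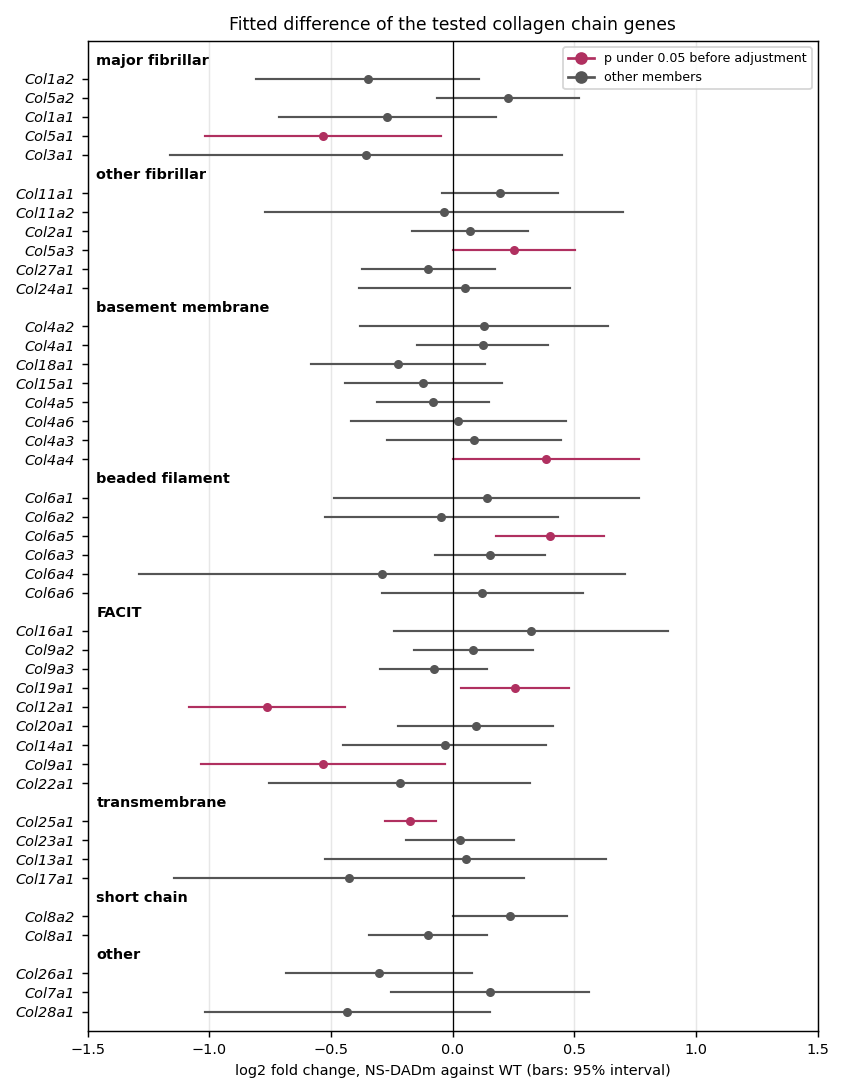
Fitted log2 fold change of the 43 tested collagen chain genes, NS-DADm against WT, by structural class; points are edgeR estimates and bars their 95% intervals, red where p was under 0.05 before adjustment. Col12a1 lies farthest from 0 at -0.76, and most intervals cross 0.

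The collagen genes varied more between mice of 1 genotype than other genes did. Their median coefficient of variation was 18.2% among the WT mice and 11.5% among the NS-DADm mice, against 6.95% and 5.33% for all genes. One animal stood apart: WT 1 held the highest value for 23 of the 43 tested genes (53.5%), where it was the highest library for 24.0% of all genes. NS-DADm 1 was highest for another 9 (20.9%, against 16.3% of all genes). Without WT 1, 31 of the 43 genes were fitted above 0 and 12 below, with a median log2 fold change of 0.14. The median over all genes in that fit was 0.00542. Leaving out the highest WT library raises the fitted values of those genes by itself, so this shift alone does not show a genotype difference. Whether WT 1 or the other WT mice are the more typical was not tested.

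The major fibril chains are those of types I, III and V, made by fibroblasts. Summed, the 5 genes gave 60.3 CPM in WT 1, 34.6 in WT 2 and 43.3 in WT 3, and 41.5, 37.3 and 37.8 in NS-DADm 1, 2 and 3. The WT mice thus spread on both sides of the NS-DADm mice, which lay close together. None of the 5 passed the test, 4 were fitted below 0, and their median log2 fold change was -0.35. That median depended on which WT mice were kept: without WT 1 it was 0.0031, with 3 of the 5 above 0. Without WT 2 the values were -0.45 (Col1a1), -0.53 (Col1a2), -0.66 (Col3a1), -0.64 (Col5a1) and 0.12 (Col5a2).

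Col1a2, the second chain of type I collagen, had 26.6, 15.0 and 20.2 CPM in WT and 16.2, 15.6 and 16.7 in NS-DADm, so that WT 2 lay below all 3 NS-DADm mice. Its log2 fold change was -0.35 ± 0.19 (SE; edgeR adjusted p = 0.599), and without WT 2 it was -0.53 with an edgeR adjusted p of 0.028. Without WT 1 it was -0.12 (edgeR adjusted p = 0.67). Col5a1, a chain that sets the diameter of type I fibrils, had 9.07, 5.74 and 5.61 CPM in WT and 5.93, 4.05 and 4.18 in NS-DADm, with WT 1 well above its group. Its log2 fold change was -0.53 ± 0.22 (SE; edgeR adjusted p = 0.406), and without WT 1 it was -0.27. Its partner chain Col5a2 had the opposite sign, 0.23 ± 0.14 (SE; edgeR adjusted p = 0.605), with overlapping groups of 6.65 to 9.47 CPM in WT and 8.37 to 10.3 in NS-DADm. Col1a1 was fitted at -0.27 and Col3a1 at -0.36, both with WT 1 highest and with overlapping groups. Without WT 1 they were at 0.0031 and 0.061, and Col5a2 at 0.39.

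Of the 6 other fibrillar chains, 4 were fitted above 0 and 2 below. Col11a1, which with Col11a2 builds the thin fibrils of cartilage and the inner ear, had 47.8, 42.5 and 36.2 CPM in WT and 52.0, 42.5 and 50.4 in NS-DADm (log2 fold change 0.20 ± 0.11 SE, edgeR adjusted p = 0.573). Col5a3, a minor type V chain, ranged from 6.93 to 9.40 CPM in WT and from 9.20 to 9.78 in NS-DADm (0.25 ± 0.12 SE, edgeR adjusted p = 0.46). Col2a1, the main cartilage chain, and Col27a1 were fitted at 0.07 and -0.10. Over all 11 fibrillar genes the median log2 fold change was -0.03, and it lay between -0.18 and 0.16 as each mouse was left out in turn, above 0 without WT 1 and without NS-DADm 2.

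Markers of meningeal fibroblasts moved with the same libraries. Of 17 such genes (Slc22a6, Slc6a13, Foxc1, Crabp2, Igf2, Dcn and others) none was at 0, and 16 were tested. Their sum was 143 CPM in WT 1, 64.8 in WT 2 and 110 in WT 3, and 80.2, 84.6 and 82.6 in the NS-DADm mice. This is the order of the WT mice seen for the major fibril chains, with the NS-DADm mice again between the WT extremes. WT 1 was the highest library for 14 of the 16, and 13 of the 16 were fitted below 0, with a median of -0.44 and none past the threshold. The transporter Slc22a6 had 3.95, 0.841 and 3.64 CPM in WT and 1.06, 0.833 and 1.14 in NS-DADm. Crabp2 and Foxc1 were fitted at -0.62 and -0.59, whereas Dcn, which encodes decorin, was fitted at 0.28. With the mean log2 level of these markers as a covariate, a fit added after the values were seen, Col1a2 was at -0.16 ± 0.08, Col1a1 at -0.07 ± 0.13 and Col3a1 at 0.04 ± 0.17 (SE). That covariate comes from the same libraries as the chains, and the part of the meninges in these values was not tested.

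**Figure D3:**
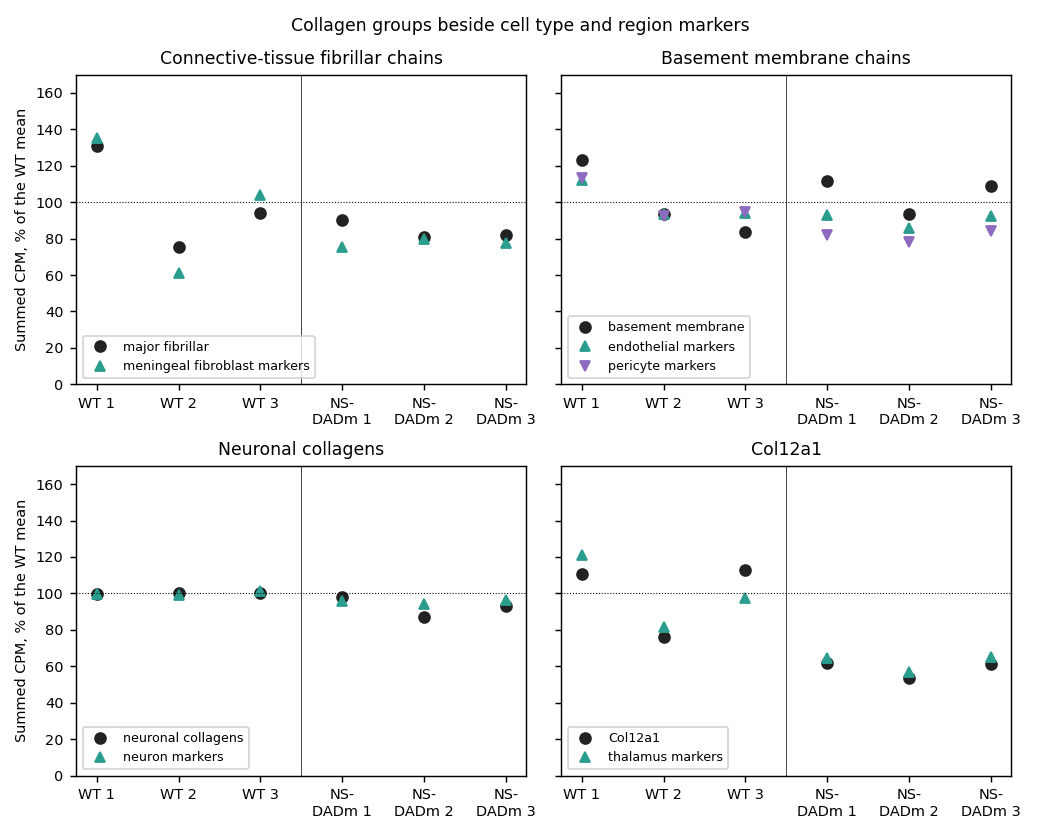
Summed level of 3 collagen groups and of Col12a1 (black circles) beside marker genes of cells or a region (coloured triangles), as percent of the WT mean in each library, with 1 point per mouse and a line between WT and NS-DADm. Major fibrillar chains and meningeal fibroblast markers are both highest in WT 1, at 131% and 135%, and lowest in WT 2, at 75.2% and 61.0%. The sum of the neuronal chains, most of it Col25a1, stays within 86.9% and 100.2%.

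The basement membrane chains, the sign of vessels, showed a different order of libraries. The 8 genes summed to 245, 187 and 167 CPM in WT and 223, 187 and 218 in NS-DADm, so that the lowest and the highest value were both WT. None passed the test, 5 were fitted above 0 and 3 below, and the median log2 fold change was 0.05, or 0.14 without WT 1. Col4a1 and Col4a2 encode the chains that every vascular basement membrane contains, and their genes lie head to head on chromosome 8 with starts 21 bases apart. Col4a2 had 116, 88.4 and 73.0 CPM in WT and 110, 87.9 and 106 in NS-DADm (log2 fold change 0.13 ± 0.20 SE, edgeR adjusted p = 0.894). Col4a1 had 65.0, 50.4 and 46.1 CPM in WT and 60.3, 55.1 and 60.6 in NS-DADm, a log2 fold change of 0.12 ± 0.12 (SE; edgeR adjusted p = 0.792). WT 1 was the highest library for both. Without WT 1, Col4a1 was called higher in NS-DADm, at 0.28 with an edgeR adjusted p of 0.0175, and Col4a2 was at 0.33 and not called.

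Col18a1 and Col15a1, whose chains carry sugar side chains and tie the basement membrane to the tissue around it, had fitted values below 0. Col18a1 had 25.4, 18.1 and 17.5 CPM in WT and 19.7, 15.1 and 17.5 in NS-DADm (-0.22 ± 0.16 SE, edgeR adjusted p = 0.684), and Col15a1 was fitted at -0.12. Without WT 1 they were at -0.029 and 0.081. Col4a4, a chain of the kidney filter, had 1.86, 1.72 and 1.74 CPM in WT and 2.58, 1.92 and 2.47 in NS-DADm, with no overlap of the groups (0.38 ± 0.18 SE, edgeR adjusted p = 0.46). The rest of the type IV chains, Col4a3, Col4a5 and Col4a6, lay between 1.74 and 10.3 CPM and their groups overlapped.

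Markers of endothelial cells and pericytes, unlike the chains these cells deposit, summed to less in every NS-DADm mouse than in any WT mouse. The 14 endothelial markers summed to 320, 266 and 268 CPM in WT and 264, 244 and 262 in NS-DADm, with none at 0. Of these 14, 11 were fitted below 0 and 12 were highest in WT 1. None passed the threshold, although Itm2a came to an edgeR adjusted p of 0.0502 (-0.31 ± 0.06 SE), and Flt1, a VEGF receptor, was fitted at -0.26. The 9 pericyte markers, none at 0, summed to 191, 156 and 160 CPM in WT and 139, 132 and 142 in NS-DADm, and all 9 were highest in WT 1. One of them was called: Rgs5, a regulator of G protein signalling that marks brain pericytes, fell from 29.1 ± 0.23 to 19.8 ± 1.1 CPM (SD, n = 3), a log2 fold change of -0.55 ± 0.07 (SE; edgeR adjusted p = 0.00333). The 7 smooth muscle markers overlapped, at 24.8 to 35.6 CPM in WT and 31.7 to 33.8 in NS-DADm. With the endothelial markers as a covariate, added after the values were seen, Col4a1 was at 0.29 ± 0.05 (SE; edgeR adjusted p = 0.0056) and Col4a2 at 0.35 ± 0.08 (SE; edgeR adjusted p = 0.0795). That covariate comes from the same libraries and was highest in WT 1, at 4.16 against 3.77 to 3.88 in the others (mean log2 CPM). Over all genes the fit called 446, where the main fit called 104. The part of vessel cell number in these values was not tested.

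Of the 3 groups, the neuronal chains had the sum that varied least among the WT mice. The single chains differed, with a coefficient of variation in WT of 1.81% for Col25a1, 5.26% for Col23a1, 9.61% for Col19a1 and 31.7% for Col24a1. Col19a1, Col23a1, Col24a1 and Col25a1 together gave 248, 249 and 248 CPM in the WT mice and 244, 216 and 231 in the NS-DADm mice, most of it from Col25a1. None passed the test, and their median log2 fold change was 0.04 (0.14 without WT 1), with 3 fitted above 0 and 1 below. The 12 pan-neuronal and inhibitory neuron markers (Snap25, Syt1, Gad1 and others) summed to 6054 to 6178 CPM in WT and 5758 to 5873 in NS-DADm, with none at 0 and none past the threshold. Of these markers, Syt1, the calcium sensor of synaptic vesicles, had the smallest p, at a log2 fold change of -0.17 (edgeR adjusted p = 0.113).

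Col25a1 (chr3:130131501-130599877, mm10, plus strand) was the only neuronal chain with separate groups. It had 194, 195 and 201 CPM in WT and 180, 165 and 177 in NS-DADm, so that every NS-DADm mouse was below every WT mouse. The log2 fold change was -0.17 ± 0.05 (SE), with a 95% interval from -0.28 to -0.07 and an edgeR adjusted p of 0.157, so the difference did not pass the threshold over all genes. Leaving out single mice kept the value between -0.20 and -0.14. With the endothelial markers as a covariate it was called, at the same -0.17 (edgeR adjusted p = 0.0449).

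Col19a1, the interneuron chain (chr1:24261890-24587472, minus strand), had 14.8, 17.4 and 14.8 CPM in WT and 20.1, 16.0 and 20.0 in NS-DADm. NS-DADm 2 lay below WT 2, and the log2 fold change of 0.26 ± 0.10 (SE) had an edgeR adjusted p of 0.373. Col23a1, a membrane collagen, had 31.7, 31.9 and 29.0 CPM in WT and 37.4, 29.5 and 27.8 in NS-DADm (0.03 ± 0.10 SE). Col24a1, a fibrillar chain of some cortical neurons and bone, had 7.39, 4.86 and 4.09 CPM in WT and 5.89, 5.0 and 6.05 in NS-DADm (0.05 ± 0.20 SE). For these last 2 genes the groups overlapped fully and the direction was not resolved.

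**Figure D4:**
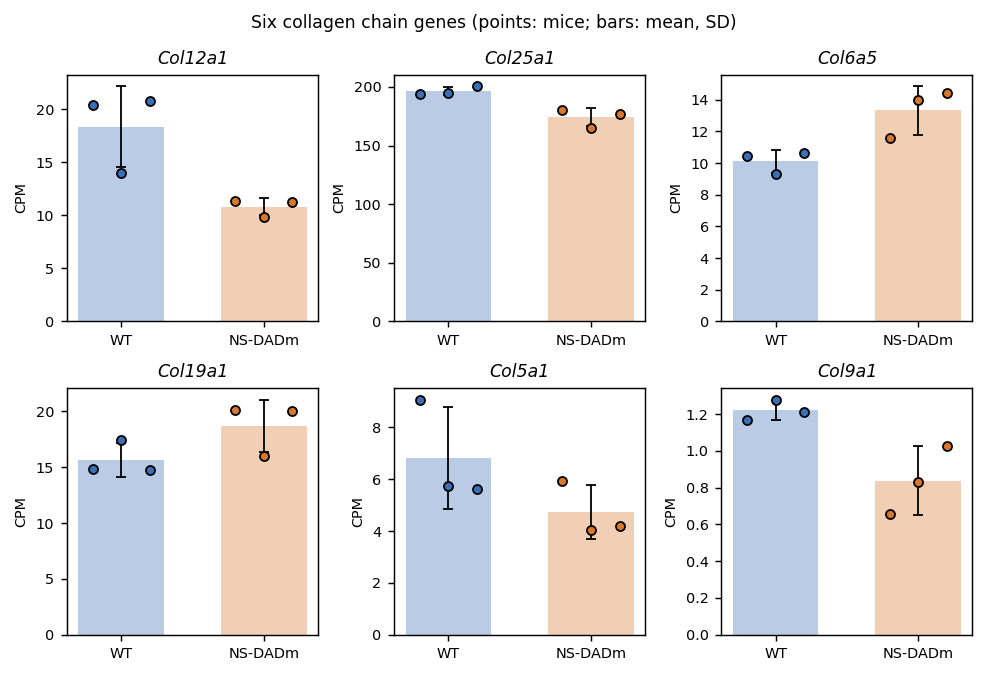
Level in CPM of the 6 collagen chain genes with the smallest unadjusted p; points are the 3 mice of each group, bars the group mean and whiskers the SD. The groups are separate for Col12a1, Col25a1, Col6a5 and Col9a1 and overlap for Col19a1 and Col5a1.

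The largest difference among the collagen chain genes was that of Col12a1 (chr9:79598991-79718831, minus strand), which encodes a FACIT collagen of tendon, ligament and bone surfaces. It had 20.4, 14.0 and 20.8 CPM in WT and 11.3, 9.88 and 11.2 in NS-DADm, from 273 to 557 reads per library. WT 2 was the lowest WT mouse and still above every NS-DADm mouse. The log2 fold change was -0.76 ± 0.14 (SE), with a 95% interval from -1.09 to -0.44 and an edgeR adjusted p of 0.0502, just outside the threshold. It was called with all genes kept in the fit (edgeR adjusted p = 0.0439), by DESeq2 (adjusted p = 2.33e-05) and without WT 2 (-0.93, edgeR adjusted p = 0.000214). Without any other single mouse the edgeR adjusted p was between 0.111 and 0.246. The thalamus markers showed a like order of libraries, with WT 1 and WT 3 above WT 2 and all 3 above the NS-DADm mice. With the mean log2 level of those 16 markers as a covariate, added after the values were seen, the log2 fold change of Col12a1 was 0.01 ± 0.22 (SE). The marker mean does not overlap between the genotypes (5.18 to 5.91 in WT, 4.32 to 4.63 in NS-DADm, log2 CPM). Genotype and thalamus marker level thus cannot be told apart in that fit. In the same fit the medians of the fibrillar and basement membrane chains also rose, so the rise was not particular to Col12a1. With the meningeal fibroblast markers as the covariate instead, Col12a1 was called lower.

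Among the other FACIT chains, Col16a1, made by smooth muscle cells and fibroblasts, had 55.6, 38.3 and 31.5 CPM in WT and 53.0, 49.2 and 54.6 in NS-DADm. WT 1 lay with the NS-DADm mice, and the log2 fold change of 0.32 ± 0.22 (SE) had an edgeR adjusted p of 0.701. Without WT 1 it was 0.58 and called, with an edgeR adjusted p of 0.00119. The type IX chains build a heterotrimer in cartilage. Col9a2 ranged from 17.5 to 24.1 CPM and Col9a3 from 13.9 to 18.3, whereas Col9a1 stayed between 0.655 and 1.28 CPM. Col9a1 had 1.17, 1.28 and 1.21 CPM in WT and 0.655, 0.833 and 1.03 in NS-DADm, with separate groups, from 16 to 35 reads per library (-0.54 ± 0.23 SE, edgeR adjusted p = 0.427). Col14a1, Col20a1 and Col22a1 lay between 1.55 and 3.44 CPM with overlapping groups. Of the bases in Col9a3 exons, 6.07% are shared with the gene Tcfl5, and the strand setting of the counting is not given.

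The beaded filament chains of type VI surround cells in connective tissue and muscle. Col6a5 (chr9:105856078-105960643, minus strand) had 10.4, 9.28 and 10.6 CPM in WT and 11.6, 14.0 and 14.4 in NS-DADm, every NS-DADm mouse above every WT mouse. Its log2 fold change was 0.40 ± 0.10 (SE; edgeR adjusted p = 0.117). Col6a5 and its neighbour Col6a6 are 96.9% identical over 572 bases, so some reads from that stretch may be assigned to the wrong gene. The longest coding transcript of Col6a5 has 9289 bases. Col6a6 itself had 1.82 to 2.63 CPM in WT and 2.06 to 2.93 in NS-DADm. The effect of shared reads on the Col6a5 value was not tested. Col6a1 had 18.7, 11.9 and 10.7 CPM in WT and 18.3, 12.3 and 15.1 in NS-DADm, with mouse 1 highest in both groups. The fitted values of Col6a1, Col6a3, Col6a6 and Col6a4 were 0.14, 0.15, 0.12 and -0.29, and Col6a2 overlapped likewise.

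The remaining chains were low. Col8a2, a short chain of the membrane beneath corneal and vessel endothelium, had 7.31, 6.72 and 5.91 CPM in WT and 7.65, 7.78 and 8.03 in NS-DADm, with separate groups (0.23 ± 0.11 SE, edgeR adjusted p = 0.461). Its partner Col8a1 was fitted at -0.10. Col26a1 was fitted at -0.30, Col28a1 at -0.43 and Col7a1, the anchoring fibril chain of skin, at 0.15, each with a 95% interval that crosses 0, and without WT 1 Col26a1 was at -0.10 and Col7a1 at 0.36. Of the transmembrane chains, Col13a1 and Col17a1 were between 0.290 and 1.29 CPM, with overlapping groups.

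Because many collagens are built from more than 1 chain, the ratio of partner chains was taken in each library from the levels per length, for 10 pairs. Col4a1 to Col4a2 was between 0.536 and 0.615 in all 6 libraries, and Col1a1 to Col1a2 between 0.297 and 0.374. With union exon lengths these ranges were 0.488 to 0.560 and 0.622 to 0.786. The ratio of Col5a1 to Col5a2 was 0.755, 0.680 and 0.604 in WT and 0.453, 0.363 and 0.394 in NS-DADm, so that its groups were separate although the groups of each chain overlapped. The ratios of Col4a3 to Col4a4 (1.34 ± 0.12 in WT, 1.10 ± 0.08 in NS-DADm, SD, n = 3) and of Col9a1 to Col9a2 (0.0460 ± 0.0081 and 0.0294 ± 0.0067) were separate and lower as well. For each of these 3 ratios the 2-sided exact permutation p was 0.1, the smallest that 3 mice against 3 allow, and 0.333 after Benjamini-Hochberg adjustment over the 10 ratios. The choice of length sets the size of such a ratio, but not its relative change between groups.

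Chain genes also lie together in the genome. Of the 44 genes, 18 form 10 neighbouring pairs closer than 1 Mb on 1 chromosome. In 3 pairs the genes are divergent and share the stretch between their starts: Col4a1 and Col4a2 on chromosome 8, Col4a3 and Col4a4 on chromosome 1 with 71 bases between them, and Col4a5 and Col4a6 on the X chromosome with 1308 bases between them. The ratio of levels per length of Col4a5 to Col4a6 was 3.79 to 5.46 across the libraries. That of Col4a3 to Col4a4 was 1.03 to 1.46, and 0.930 to 1.32 with union exon lengths, on both sides of 1. Col3a1 and Col5a2 are convergent neighbours on chromosome 1, 24.614 kb apart, and had fitted values of opposite sign, -0.36 and 0.23.

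The genes that build, bind, sense and remove collagen gave no call either. Of 30 tested genes for collagen processing, 2 had p under 0.05 before adjustment and were higher and 1 was lower, with a median log2 fold change of 0.01. Over all genes 4.4% were higher and 6.46% lower by that rule, and the counts for the lists below are read against these shares. The groups did not overlap for 6 processing genes that were higher and 1 that was lower, against 7.86% and 8.93% of all genes. The list, most of it Sparc, summed to 2529 to 2643 CPM in WT and 2705 to 2772 in NS-DADm. Serpinh1, the chaperone of the collagen triple helix, had 22.7, 18.6 and 18.8 CPM in WT and 18.2, 16.1 and 16.7 in NS-DADm (-0.24 ± 0.09 SE, edgeR adjusted p = 0.353). Sparc, which binds collagen outside the cell, was at 1779 ± 40 CPM in WT and 1909 ± 41 in NS-DADm (SD, n = 3; 0.10 ± 0.04 SE). The prolyl hydroxylase family gene P3h3 and the peptidyl-prolyl isomerase Fkbp10 were fitted at 0.16 and 0.31.

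Collagen-binding proteoglycans had no common direction, with 2 of 9 higher and 1 lower at p under 0.05 before adjustment and none past the threshold. Prelp, which ties basement membranes to fibrils, had 23.7, 26.8 and 25.4 CPM in WT and 27.6, 40.5 and 34.6 in NS-DADm, all NS-DADm mice above WT (0.44 ± 0.12 SE, edgeR adjusted p = 0.217). Aspn (asporin) was fitted at -0.77, Dcn at 0.28 and Bgn (biglycan) at -0.22. Dcn, Lum and Ogn stand in both this list and that of the meningeal markers. Kera was listed at 0 in every library.

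Laminins, nidogens, perlecan and agrin, which share the basement membrane with type IV collagen, were represented by 15 genes, with 1 lower before adjustment and a median of -0.04. Their sum was 551, 460 and 441 CPM in WT and 491, 445 and 480 in NS-DADm, highest in WT 1 as for the sum of the basement membrane chains. Lama2, the laminin chain of the parenchymal and muscle basement membrane, had 21.02, 20.4 and 20.6 CPM in WT and 17.0, 15.5 and 17.8 in NS-DADm, with separate groups (-0.30 ± 0.08 SE, edgeR adjusted p = 0.108). Nid1 and Lama1 were fitted at -0.19 and 0.21.

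Of 10 tested collagen receptors, 8 were fitted below 0, 1 had p under 0.05 before adjustment and none passed the threshold. That gene was Itga11, the integrin chain for fibrillar collagen on fibroblasts, with 2.12, 3.11 and 2.46 CPM in WT and 1.96, 1.59 and 1.67 in NS-DADm (-0.56 ± 0.19 SE, edgeR adjusted p = 0.276). Itgb1 and the collagen-sensing kinases Ddr1 and Ddr2 were fitted between -0.15 and -0.06. Of the 10 tested genes for collagen breakdown and its inhibitors, 1 was higher and 2 were lower before adjustment. These were the membrane-bound collagenase Mmp14 (-0.42 ± 0.17 SE) and the inhibitors Timp3 (-0.19 ± 0.05 SE, edgeR adjusted p = 0.169) and Timp4 (0.18 ± 0.07 SE), while Timp2 was fitted at -0.06.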

How the data were processed

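RNA-seq of the hypothalamus of 3 WT and 3 NS-DADm mice was used, with groups taken from the titles. The deposited values are raw read counts per gene symbol. The submitters' processing notes name TopHat2 2.0.9, HTSeq and mm10. The HTSeq version, annotation and strand setting are not given in the sources. The 5 rows of unassigned reads (28.7% to 31.2% per library) were left out. Depth was 24173076 to 27606309 gene reads, and members with few reads have wide intervals.

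Counts were tested with edgeR 4.0.16 (R 4.3.3; filterByExpr, TMM, robust quasi-likelihood F test, Benjamini-Hochberg over 15894 genes, threshold 0.05). CPM used TMM-scaled sizes. Levels per kb used the longest coding transcript of GENCODE on mm10. Ratios were tested by exact permutation. The script was tested on simulated counts. DESeq2 1.42.0 and limma 3.58.1 served as alternatives, with other scalings, filters, left-out mice and marker covariates. Promoter windows came from RefSeq (GRCm38.p6).

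The members and lists were chosen with earlier results of these data known. Genes named with values were the 12 highest per length, up to 4 with the smallest p in each class or list, and the 4 neuronal chains. Log2 fold changes are NS-DADm minus WT. One gene that this rule names is not reported here.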

Additional observations from a re-analysis of the deposited data

How the results depend on the processing

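The sign of 16 of the 35 collagen genes named with values held under all 16 alternatives run, and 40 of the 558 alternative values, in 19 genes, changed sign. The count of 0 collagen genes called held under the other scalings (size factors by median of ratios, upper quartile), the filter of at least 1 CPM in 3 libraries and limma voom. It became 1 with no count filter and 1 with DESeq2 (Col12a1 in both), and 0 to 2 as single mice were left out: Col16a1 and Col4a1 without WT 1, Col12a1 and Col1a2 without WT 2. With covariates chosen after seeing the data it was 1 for the meningeal fibroblast markers (Col12a1) and 5 for the endothelial markers (Col11a1, Col16a1, Col25a1, Col4a1 and Col6a1). Over all genes the 104 calls became 203 with no filter, 282 with DESeq2, 15 with the thalamus covariate, 226 with the meningeal and 446 with the endothelial covariate, and 5 (without NS-DADm 2) to 312 (without WT 1) as single mice were left out. The cause of these shifts was not tested.

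Whether the replicate numbers pair the mice is not settled by these data. Same-numbered libraries had correlations of their deviations of 0.131, 0.0873 and -0.0349. Libraries with unlike numbers had correlations from -0.124 to 0.0573. A fit with the number as a replicate block called 3 collagen genes (Col12a1, Col25a1 and Col5a1) and 409 genes in all.

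With the thalamus covariate the median of the fibrillar chains moved to 0.69 and that of the basement membrane chains to 0.67, and these genes changed sign: Col11a2 0.93, Col12a1 0.013, Col15a1 0.72, Col18a1 0.54, Col1a1 0.88, Col1a2 0.69, Col26a1 0.75, Col27a1 0.29, Col5a1 0.47, Col6a4 0.49 and Col9a3 0.45. With the meningeal covariate Col11a2 (0.063), Col15a1 (0.0078) and Col6a4 (0.019) did so, and with the endothelial covariate Col11a2 (0.25), Col15a1 (0.094), Col1a1 (0.015), Col27a1 (0.051) and Col9a3 (0.057). As single mice were left out, the log2 fold change crossed 0 for Col11a2 (-0.24 to 0.21), Col13a1 (-0.18 to 0.25), Col15a1 (-0.24 to 0.081), Col1a1 (-0.45 to 0.0031), Col23a1 (-0.10 to 0.11), Col24a1 (-0.12 to 0.33), Col27a1 (-0.21 to 0.049), Col4a2 (-0.017 to 0.33), Col6a1 (-0.014 to 0.43), Col6a4 (-0.62 to 0.063), Col6a6 (-0.031 to 0.25), Col7a1 (-0.031 to 0.36), Col9a2 (-0.021 to 0.21) and Col9a3 (-0.15 to 0.045).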

Other observations

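Markers of 3 further sources of RNA were measured beside the collagens. The 8 choroid plexus markers summed to 36.8 to 41.6 CPM in WT and 34.7 to 46.1 in NS-DADm, and the one with the smallest p, Ttr (transthyretin), was fitted at 0.93 with an edgeR adjusted p of 0.315. The 6 tanycyte markers, of the cells that line the third ventricle, summed to 47.4 to 51.5 CPM in WT and 38.0 to 52.7 in NS-DADm, with Adm (adrenomedullin) at -1.15 and Dio2, the deiodinase that activates thyroid hormone, at -0.54. Of the 9 blood cell markers, 6, the globin genes, were listed at 0 in all libraries and only 2 were tested.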
